A study of Mus musculus with 6 samples.

Results

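The genes of the proteasome, the large protease of the cell, were taken as all probe sets of the array that the platform annotation assigns to 1 gene whose symbol starts with Psm, then a letter from a to g and a digit. This rule, which uses no measured value, found 103 of 45101 probe sets and 49 of the 18193 genes that have a probe set assigned to them alone. Of the 49, 47 encode subunits, activators, an inhibitor or assembly chaperones of the proteasome. The other two, Psmc3ip and Psme3ip1, encode proteins named for binding a proteasome protein. The probe set of Psme2, the beta chain of PA28, is also assigned to its near-copy Psme2b, so it has 2 symbols and was left out.

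The proteasome is a barrel that degrades proteins marked with ubiquitin. Its 20S core is built of rings of alpha and beta subunits, and 3 of the beta subunits cut peptide bonds. A 19S cap of ATPases and non-ATPase subunits recognises, unfolds and feeds in the ubiquitinated substrate. In immune cells and after interferon gamma, the inducible catalytic subunits Psmb8, Psmb9 and Psmb10 take the places of Psmb5, Psmb6 and Psmb7 in newly assembled cores. This immunoproteasome, with the interferon-inducible activator PA28, yields many of the peptides shown on MHC class I, and spleen is rich in it.

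Perfluorooctane sulfonate (PFOS), a fluorinated surfactant that persists in the environment, was given to mice by stomach tube at 10 mg per kg body weight a day for 3 weeks, which gave 3 spleen samples, and 3 control samples came from untreated mice. All were Balb/c mice of 6 to 8 weeks, labelled female, and whole spleen was measured with 1 Affymetrix Mouse430_2 array a sample. The study set out to find transcripts that differ with exposure. Values are deposited RMA values on a log2 scale, so that a change of -1 is a halving relative to the rest of the array.

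Against the label, the brightest probe set of the Y-linked Eif2s3y read 9.76 to 9.91 in PFOS and 9.62 to 9.70 in control, and that of Kdm5d 7.79 to 7.94 in PFOS and 7.54 to 7.75 in control. Xist lay between 3.85 and 5.86 in PFOS and between 3.71 and 5.86 in control over its 3 probe sets, so all 6 samples go against it. Arrays of a group correlated at 0.9985 to 0.9991 over the 13101 genes tested, and arrays of different groups at 0.969 to 0.970. The SD of a Psm gene within a group had a median of 0.025. The labels call the samples of a group biological replicates and do not say whether each is a single animal or a pool. The labelling spikes, bacterial RNAs put into each sample, averaged 5.81 ± 0.025 in PFOS and 6.29 ± 0.0038 in control (SD, n = 3 each; exact two-sided permutation p = 0.1, the smallest that 3 against 3 allow). Scaling the arrays on these spikes adds 0.476 to every change, and directions below hold for the deposited values unless stated.

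Promoters of inducible and constitutive catalytic subunits and of a cap subunit are shown, since members of these classes moved apart. The cap subunit is the one with the largest fall by the probe set that stood for its gene. Each sequence is the 150 bases before the start site, 5′ to 3′, from RefSeq (GRCm38.p6). Capitals mark matches on either strand to a gamma-activated site (TTCNNNGAA, which interferon-activated STAT factors can bind) or to an interferon response core (GAAANNGAA) for Psmb8 and Psmb9, and to an antioxidant response core (TGACNNNGC, which NRF1 and NRF2 can bind) for Psmb5 and Psmd1.
Psmb8 (chr17:34198045-34198194, plus strand): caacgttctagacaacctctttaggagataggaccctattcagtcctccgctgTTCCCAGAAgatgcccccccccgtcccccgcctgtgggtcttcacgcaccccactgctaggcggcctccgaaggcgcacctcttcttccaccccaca
Psmb9 (chr17:34187331-34187480, minus strand): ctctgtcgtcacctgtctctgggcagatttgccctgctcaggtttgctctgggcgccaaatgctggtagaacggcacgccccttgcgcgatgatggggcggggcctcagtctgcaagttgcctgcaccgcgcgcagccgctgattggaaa
Psmb5 (chr14:54617996-54618145, minus strand): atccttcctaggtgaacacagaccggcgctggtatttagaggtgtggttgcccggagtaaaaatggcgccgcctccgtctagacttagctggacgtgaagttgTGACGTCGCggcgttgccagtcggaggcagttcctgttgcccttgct
Psmd1 (chr1:86064469-86064618, plus strand): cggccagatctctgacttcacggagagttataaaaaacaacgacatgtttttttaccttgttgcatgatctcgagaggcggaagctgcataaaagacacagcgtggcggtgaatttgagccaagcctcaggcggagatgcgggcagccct

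In Psmb8 the gamma-activated letters began 97 bases upstream of the start, and in Psmb5 the antioxidant response letters began 47 bases upstream. Psmb9, whose window overlaps the opposing promoter of the peptide transporter gene Tap1, and Psmd1 held no match of the kinds searched for them. RefSeq windows of 300 bases, 250 before and 50 after the start, were matched for 41 of the 49 Psm genes. The antioxidant response core lay in 2 of 14 cap genes with a window (14.3%), in 2 of 11 core genes (18.2%) and in 14.0% of all 27025 genes with a window. The gamma-activated site lay in 1 of the 4 immunoproteasome and PA28 genes and in 9.55% of all genes with a window, and the interferon response core lay in 1 of the 4 (Psme1, in the transcribed part of the window), in 14.3% of cap genes, in 18.2% of core genes and in 9.76% of all genes with a window. The gamma-activated site lay in 1 cap gene (7.14%) and in 0 of the 11 core genes, and the antioxidant response core in 0 of the 4. The CCAAT box, which NF-Y binds, lay in 28.6% of cap genes, 54.5% of core genes and 41.1% of all genes with a window. Among the 10560 genes tested that have a window, the antioxidant response core lay in 16.8% and the gamma-activated site in 8.28%. The interferon response core lay in 8.52% of them and the CCAAT box in 42.1%. A match describes letters only, and overlaps between these motifs were allowed.

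Relative to the rest of the array, the 3 parts of the proteasome went different ways in PFOS spleens. In the deposited values, the catalytic immunoproteasome subunits and PA28 alpha rose and the cap subunits with a Psm symbol fell. The constitutive core held both rises and falls in these values, with a share of falls near that of all genes. All these changes were under 2-fold. Of 47 Psm genes tested with limma, which left out Psma8 and Psmb11 for low values, 31 were lower and 8 higher at a Benjamini-Hochberg adjusted p under 0.05, and 8 were not called. These 47 include Psmc3ip, called lower, and Psme3ip1, not called, which do not encode parts of the proteasome. Over all genes tested, 26% were called lower and 40.6% higher. All 17 cap genes were lower with a median change of -0.21, all 4 immunoproteasome and PA28 genes were higher with a median of 0.27, and of the 14 core genes 4 were lower and 4 higher with a median of -0.026, beside a median of 0.051 over all genes. The 4 lower core genes are 28.6% of the core, near the 26% over all genes. The 4 higher ones are also 28.6%, under the 40.6% over all genes. The counts in the core depend on the scaling, with 7 lower and 1 higher under scaling on ribosomal protein genes, and 0 lower and 14 higher under scaling on the labelling spikes. They also depend on the choice of probe sets. With the mean over probe sets 3 were lower and 2 higher. Without probe sets whose suffix marks possible binding to more than 1 transcript, 2 were lower and 1 higher of 12 core genes tested. In 31 Psm genes the highest PFOS value was under the lowest control value, as in 27.8% of all genes tested, and in 9 Psm genes all PFOS values were above all control values, as in 43.2%. Psmc3ip is among these 31 and Psme3ip1 among these 9. When arrays were scaled on the labelling spikes, 41 Psm genes were higher and 2 lower, and 16 of the 17 cap genes were higher, with medians of 0.27 for the cap, 0.45 for the core and 0.75 for the immunoproteasome genes beside 0.53 for all genes. Such scaling adds the same amount to each gene, so it leaves the order of these 4 medians and the distances between them as they are.

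**Figure D1:**
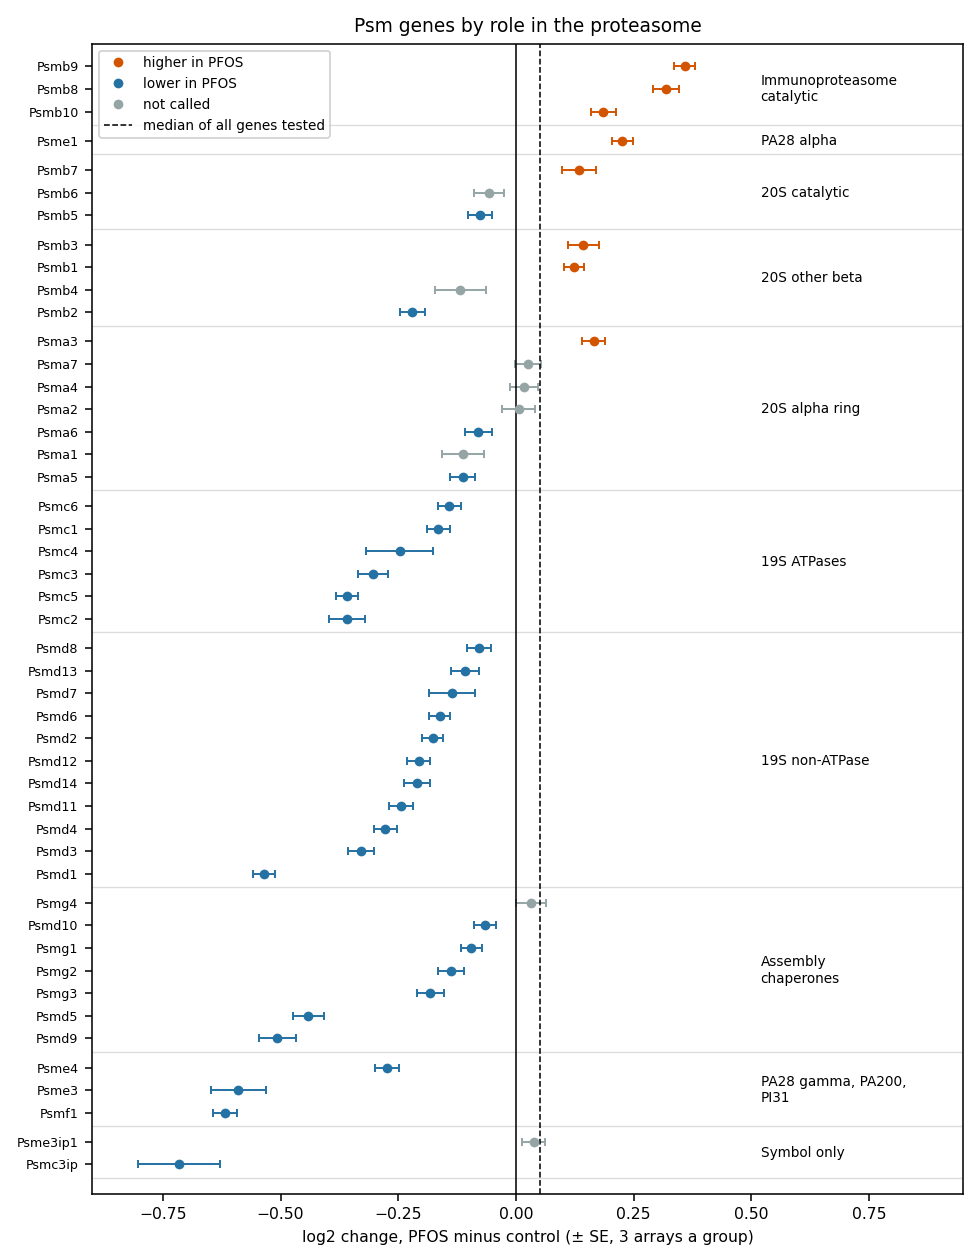
Log2 change, PFOS minus control, of the 47 Psm genes tested, grouped by role from top to bottom; points are limma estimates, bars their SE (3 arrays a group) and the dashed line the median of all genes tested (0.051). The 4 immunoproteasome and PA28 genes lie right of the line and the 17 cap genes left of 0 in the deposited values; scaling on the labelling spikes moves all points right by 0.476, which puts 16 cap genes above 0.

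The 3 inducible catalytic subunits were all higher in PFOS spleens. Psmb8, the chymotrypsin-like subunit beta5i, read 11.07, 11.02 and 11.02 on the PFOS arrays, against 10.74, 10.69 and 10.72 on the control arrays. Psmb9, the subunit beta1i encoded beside Tap1, read 10.67, 10.68 and 10.69 on the PFOS arrays, against 10.32, 10.32 and 10.32 on the control arrays. Psmb10, the trypsin-like subunit beta2i, read 9.88, 9.89 and 9.95 on the PFOS arrays, against 9.71, 9.72 and 9.74 on the control arrays. The PFOS arrays were the high ones for each of these genes and the groups did not overlap. Psmb8 was 1.25-fold higher in PFOS (log2 change 0.32 ± 0.028, SE; limma adjusted p = 4.24e-05), Psmb9 1.28-fold (0.36 ± 0.022; limma adjusted p = 6.91e-06) and Psmb10 1.14-fold (0.19 ± 0.027; limma adjusted p = 0.000657). A second probe set of Psmb8 changed by 0.36. These rises kept their sign and call under every setting tried that could measure the gene.

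PA28 alpha, encoded by Psme1, forms with the beta chain the ring that opens the core for peptide release. Psme1 read 11.00, 11.01 and 10.99 on the PFOS arrays, against 10.76, 10.77 and 10.78 on the control arrays. The groups did not overlap, and the change was 0.23 ± 0.023 (limma adjusted p = 8.66e-05).

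The constitutive catalytic subunits did not move together. Psmb5, the chymotrypsin-like subunit that Psmb8 replaces, read 9.92, 9.92 and 9.96 on the PFOS arrays, against 10.01, 10.04 and 9.99 on the control arrays. Its change of -0.077 ± 0.025 (limma adjusted p = 0.0296) was called lower, but the call was lost without PFOS replicate 1 or 2 or control replicate 1 or 2 (limma adjusted p from 0.0542 to 0.099) and with quantile normalization (0.17). Psmb6, the caspase-like subunit, read 9.73, 9.65 and 9.71 on the PFOS arrays, against 9.75, 9.72 and 9.79 on the control arrays. Its groups overlapped and it was not called (-0.057 ± 0.031; limma adjusted p = 0.14), but scaling on ribosomal protein genes gave -0.13 and a call (limma adjusted p = 0.00724). Psmb7, the trypsin-like subunit, read 7.80, 7.79 and 7.85 on the PFOS arrays, against 7.61, 7.71 and 7.72 on the control arrays. It was higher in PFOS by 0.13 ± 0.036 (limma adjusted p = 0.0129), a call lost with scaling on ribosomal protein genes (adjusted p = 0.203).

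**Figure D2:**
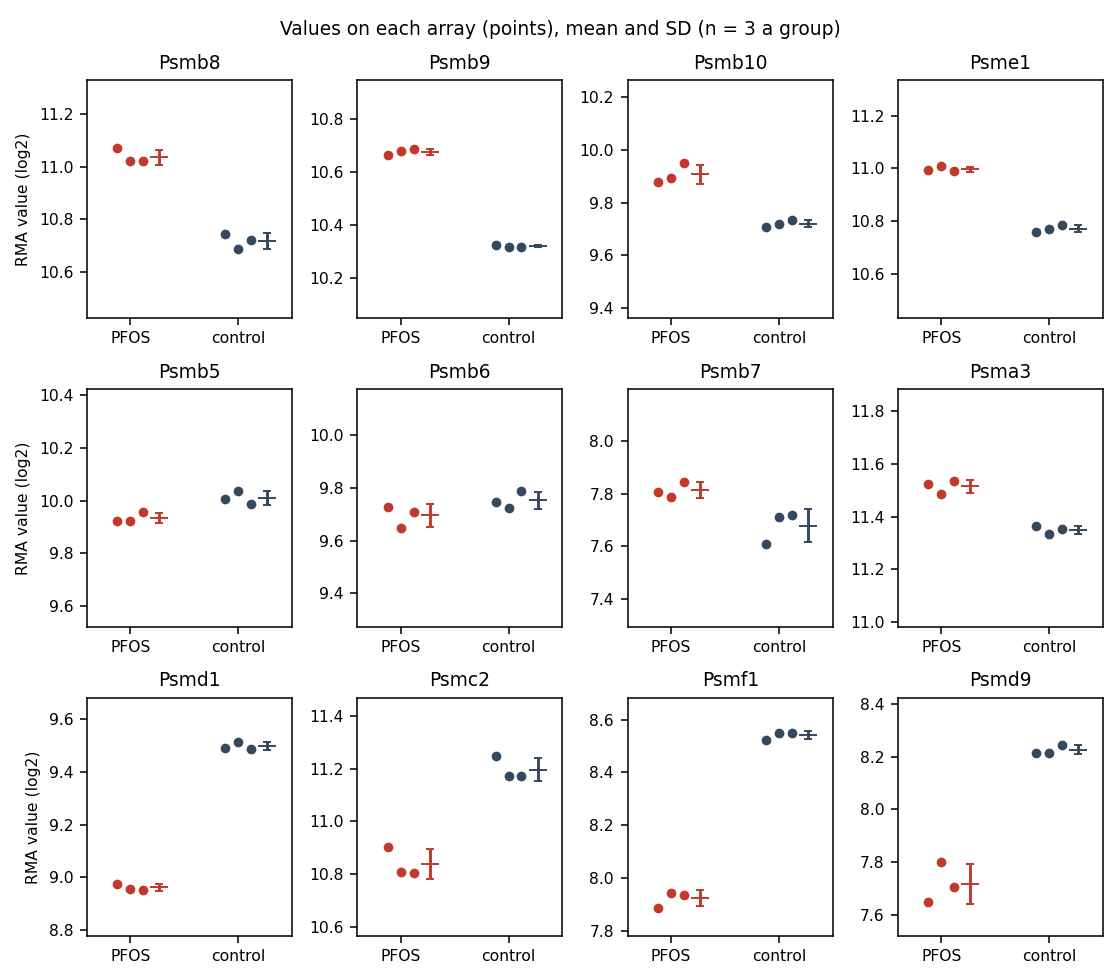
RMA value (log2) on each PFOS and control array (points, with mean and SD beside them, n = 3 a group) for 12 Psm genes, each panel spanning the same range of 0.9. Psmb8, Psmb9, Psmb10 and Psme1 stand higher on the 3 PFOS arrays and Psmd1, Psmc2, Psmf1 and Psmd9 lower, with Psmb6 overlapping; scaling on the labelling spikes turns the sign of Psmb5, Psmb6 and Psmc2 and ends the calls of Psmd1 and Psmd9.

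Because each inducible subunit takes the place of 1 constitutive subunit, the log2 difference of each pair was formed within every array and its control mean set to 0. Probe sets differ in how brightly they shine, so this shows how unequally the 2 transcripts changed and not their ratio. Psmb8 minus Psmb5 was 0.44, 0.39 and 0.36 on the PFOS arrays and 0.031, -0.059 and 0.027 on the control arrays. The difference of changes was 0.39, or 1.31-fold in favour of Psmb8. Psmb9 minus Psmb6 was 0.37, 0.46 and 0.41 on the PFOS arrays and 0.012, 0.026 and -0.038 on the control arrays, a difference of 0.42 or 1.33-fold in favour of Psmb9. In both pairs all PFOS arrays lay above all control arrays, with an exact two-sided permutation p = 0.1, the smallest possible, and 0.15 after adjustment over the 3 pairs. Psmb10 minus Psmb7 was 0.033, 0.061 and 0.061 on the PFOS arrays and 0.059, -0.035 and -0.024 on the control arrays. These overlapped, and the difference of 0.051 had an exact permutation p = 0.2. A constant added to an array cancels in such a difference, so scaling on ribosomal protein genes or spikes cannot alter it.

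**Figure D3:**
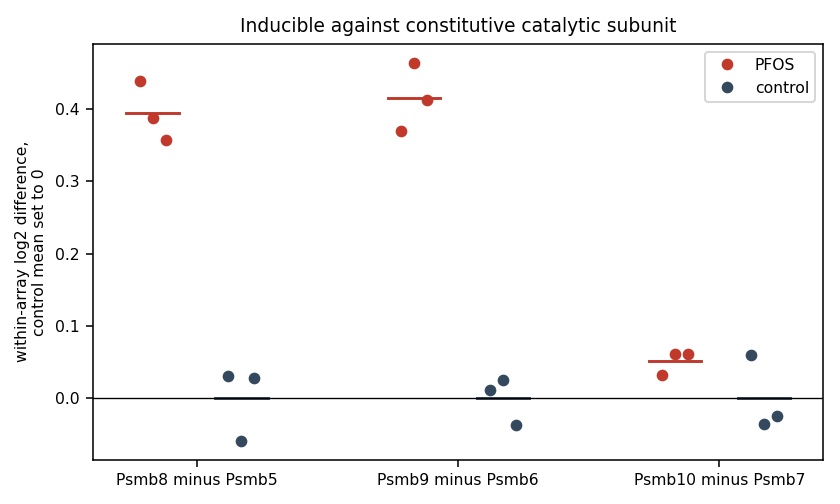
Within-array log2 difference between an inducible catalytic subunit and the constitutive subunit it replaces, with the control mean of each pair set to 0; points are arrays (3 PFOS, 3 control) and lines are group means. Psmb8 minus Psmb5 and Psmb9 minus Psmb6 lie 0.39 and 0.42 higher in PFOS, and Psmb10 minus Psmb7 overlaps between groups at a mean difference of 0.051.

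Among the other core subunits, the structural beta subunits split. Psmb2 read 9.29, 9.35 and 9.34 on the PFOS arrays, against 9.54, 9.56 and 9.54 on the control arrays. It fell by 0.22 ± 0.026 (limma adjusted p = 0.000211), with PFOS arrays below all controls. Psmb3 read 11.14, 11.17 and 11.13 on the PFOS arrays, against 11.07, 10.97 and 10.98 on the control arrays. It rose by 0.14 ± 0.033 (limma adjusted p = 0.0063), a call lost with scaling on ribosomal protein genes (adjusted p = 0.0807) and without probe sets whose suffix marks possible binding to related transcripts (0.0703). Psmb1 was called higher (0.12 ± 0.022) on its brightest probe set, while a dimmer one was called lower (-0.25), so its direction depends on the probe set. Psmb4 changed by -0.12 ± 0.054 and was not called.

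In the alpha ring, which forms the gate of the core, no gene changed by more than 1.12-fold. Psma3 read 11.52, 11.49 and 11.54 on the PFOS arrays, against 11.36, 11.33 and 11.35 on the control arrays. It was higher by 0.17 ± 0.025 (limma adjusted p = 0.000757), but its other probe set differed by -0.026 and was not called. Psma5 read 10.86, 10.80 and 10.80 on the PFOS arrays, against 10.95, 10.91 and 10.94 on the control arrays. It was lower by 1.08-fold (-0.11 ± 0.027; limma adjusted p = 0.00774). Psma6 was called lower at -0.08 ± 0.029 (limma adjusted p = 0.0405), a call that 5 of the 6 settings leaving out 1 array did not keep. Psma1 (-0.11 ± 0.044), Psma2 (0.0057 ± 0.034), Psma4 (0.018 ± 0.030) and Psma7 (0.026 ± 0.028) were not called. The subunits of testis and thymus could not be tested: Psma8 read 5.48, 5.43 and 5.43 on the PFOS arrays, against 5.24, 5.20 and 5.27 on the control arrays, and Psmb11, the thymoproteasome subunit, 4.88, 4.78 and 4.58 on the PFOS arrays, against 4.76, 4.80 and 4.70 on the control arrays, all under the filter floor of 5.62.

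All 6 ATPases of the cap, the motors that unfold the substrate, fell in the deposited values, while scaling on the labelling spikes put all 6 changes above 0, between 0.12 and 0.33. Psmc2 read 10.90, 10.81 and 10.80 on the PFOS arrays, against 11.25, 11.17 and 11.17 on the control arrays. It was 1.28-fold lower in PFOS (-0.36 ± 0.038; limma adjusted p = 0.000117), and its second probe set changed by -0.37. Psmc5 (-0.36 ± 0.023) and Psmc3 (-0.30 ± 0.031) followed in size. Psmc4 (-0.25 ± 0.072), Psmc1 (-0.16 ± 0.024) and Psmc6 (-0.14 ± 0.024) changed less. The call of Psmc4 was lost without PFOS replicate 2 (adjusted p = 0.054) or control replicate 1 (0.0562).

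All 11 non-ATPase subunits of the cap with a Psm symbol fell too. With scaling on the labelling spikes, 10 of the 11 changes were above 0, up to 0.40. Sem1, a cap subunit without such a symbol, was not called (0.043 ± 0.022, limma adjusted p = 0.129). Its PFOS arrays lay above the control arrays. Psmd1, a scaffold of the cap's base, read 8.98, 8.96 and 8.95 on the PFOS arrays, against 9.49, 9.51 and 9.49 on the control arrays. The groups did not overlap, and Psmd1 was 1.45-fold lower in PFOS (-0.54 ± 0.023; limma adjusted p = 1.12e-06). Psmd2, the other large base scaffold, changed by -0.18 ± 0.022. The ubiquitin receptor Psmd4 changed by -0.28 ± 0.024, and the deubiquitinase Psmd14, which cuts ubiquitin off the substrate, by -0.21 ± 0.029. Among the lid subunits that surround Psmd14, Psmd3 (-0.33 ± 0.027), Psmd11 (-0.25 ± 0.026), Psmd12 (-0.21 ± 0.024) and Psmd6 (-0.16 ± 0.023) fell. For Psmd6 this rests on 1 of 2 probe sets of similar brightness: the other differed by 0.075 and was not called, and with the mean over probe sets the change was -0.044 (limma adjusted p = 0.309). Psmd7 (-0.14 ± 0.049), Psmd13 (-0.11 ± 0.030) and Psmd8 (-0.078 ± 0.026) were called, with limma adjusted p of 0.0412, 0.0156 and 0.03. Psmd7 was read here from the less changed of its 2 probe sets past the filter. Leaving out 1 array ended the call of Psmd7 and Psmd8 in 5 cases each and of Psmd13 in 1 case (control replicate 3, adjusted p = 0.0562). With Psmc4 counted, 14 to 17 cap genes were called lower in those 6 settings and 0 higher.

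Probe sets of 1 gene did not always tell the same story. Of 83 Psm probe sets past the filter, 48 were called lower and 10 higher, against 26.3% and 37.2% of all probe sets tested. Of 23 Psm genes with several such probe sets, 15 had all of them changing in 1 direction and 2, Psmb1 and Psmd13, had probe sets called in opposite directions. In Psmd13 the brightest differed by -0.11 and the dimmest by 0.14. Another probe set of Psmd7 fell by 0.82, against 0.14 for the one that stood for the gene. It was dimmer over the 6 arrays but brighter on the control arrays. There it read 7.91, 7.68 and 7.72, against 7.73, 7.56 and 7.68. Of the 6 of Psmd11, 4 were called lower and 2 were not called, at -0.0067 and 0.023. Among the 3 of Psmd4, the differences were -0.40, -0.28 and 0.11, the last not called.

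Of the 7 assembly chaperones, 6 were called lower, where 26% of all genes were. Scaling on the labelling spikes put 6 of the 7 changes above 0. Psmd9, a chaperone of the ATPase ring, read 7.65, 7.80 and 7.71 on the PFOS arrays, against 8.21, 8.22 and 8.24 on the control arrays. It was 1.42-fold lower (-0.51 ± 0.039; limma adjusted p = 2.37e-05), although 1 of its 3 probe sets differed by 0.14 and was not called. Psmd5, another base chaperone, changed by -0.44 ± 0.033 and Psmd10, the third, known as gankyrin, by -0.066 ± 0.023. The call of Psmd10 (limma adjusted p = 0.0361) was lost in 5 of the 6 settings that leave out 1 array. The chaperones of the alpha ring changed less, with Psmg3 at -0.18 ± 0.028, Psmg2 at -0.14 ± 0.027 and Psmg1 at -0.095 ± 0.022, while Psmg4 (0.032 ± 0.032) was not called.

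The remaining activators and the inhibitor were lower. By the probe sets that stood for the genes, they held the 2 largest falls among the proteasome genes tested. Spike scaling brought these falls to -0.14 and -0.11. Psmf1, which encodes PI31, named as an inhibitor of the core, read 7.89, 7.94 and 7.94 on the PFOS arrays, against 8.52, 8.55 and 8.55 on the control arrays. It was 1.53-fold lower (-0.62 ± 0.026; limma adjusted p = 9.67e-07), and all 4 of its probe sets were called lower, by 0.19 to 1.00. Psmf1 stayed lower with spike scaling, where it and Psmc3ip were the 2 Psm genes so called. Psme3, the nuclear activator PA28 gamma, differed by -0.59 ± 0.059 and Psme4, the activator PA200, by -0.27 ± 0.026 with all 4 probe sets lower. PA28 gamma and PA28 alpha thus moved in opposite directions in the deposited values. Psmc3ip, a meiotic recombination factor and no proteasome subunit, had the largest fall of the matched symbols. It read 6.85, 6.47 and 6.66 on the PFOS arrays, against 7.39, 7.32 and 7.42 on the control arrays, a change of -0.71 ± 0.087 (limma adjusted p = 0.000249). Psme3ip1, which encodes a partner of PA28 gamma, was not called (0.038 ± 0.024), though its PFOS arrays lay above the control arrays.

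**Figure D4:**
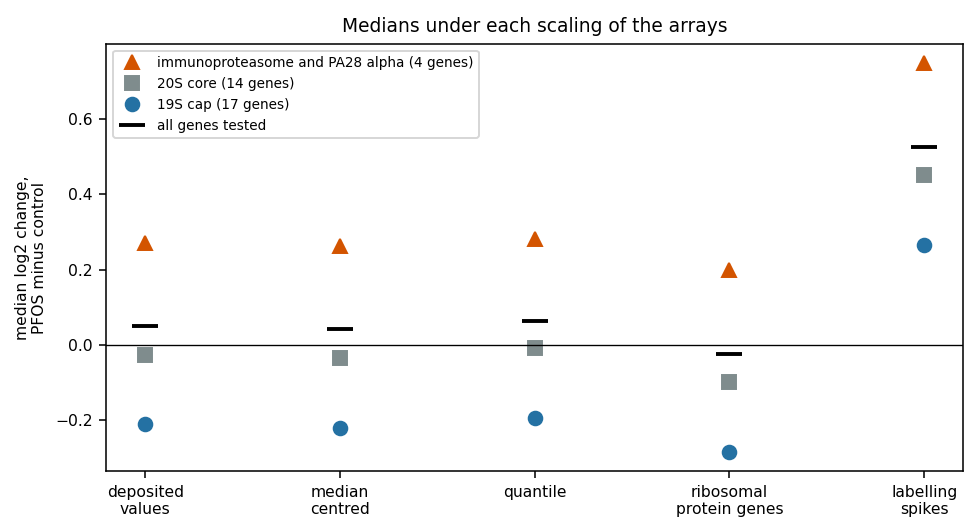
Median log2 change, PFOS minus control, of the 4 immunoproteasome and PA28 genes, the 14 core genes, the 17 cap genes and all genes tested under 5 scalings of the arrays. In each scaling the immunoproteasome median stands above that of all genes, the core median below it and the cap median lowest. Only quantile normalization could have altered this order, since the other scalings shift all genes of an array alike. The sign of the core and cap medians turns with the labelling spikes, where they reach 0.45 and 0.27.

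Genes that work with the proteasome were read from the same fit. Of 10 measured partners without a Psm symbol, 5 were lower and 2 higher (median -0.094), where 26% of all genes were called lower and 40.6% higher. Fbxo7, an F-box protein that binds PI31, changed by -0.77 ± 0.029, the cap-bound Txnl1 by -0.43 ± 0.052 and the cap deubiquitinase Uchl5 by -0.28 ± 0.029. Ublcp1, a phosphatase that acts on the proteasome, rose by 0.25 ± 0.026, and the other gene called higher was Pomp, the maturation factor of the core (0.11 ± 0.023). Of 9 measured genes of ubiquitin supply and shuttling, 4 were lower and 4 higher (median 0.07), the count of higher genes being near the share over all genes, with the shuttle factors Rad23b at -0.19 ± 0.022, Ubqln1 at -0.15 ± 0.022 and Ubqln2 at 0.28 ± 0.034, and the cofactor Nsfl1c at 0.25 ± 0.032. Of 10 measured regulators of proteasome gene transcription, 4 were lower and 3 higher (median -0.023). The small Maf proteins Mafg (-0.63 ± 0.037) and Mafk (-0.50 ± 0.028) and the CCAAT-binding subunit Nfyb (-0.38 ± 0.035) fell, and Ngly1, a deglycosylase that acts on NRF1, rose (0.22 ± 0.031). Nfe2l1, which encodes NRF1 and is named here after its value was seen, rose by 0.14 ± 0.026.

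Most measured genes of class I peptide loading and of interferon gamma signalling rose. Of 12 measured genes of MHC class I peptide loading, 9 were higher and 0 lower (median 0.14), where 40.6% of all genes were called higher. The class I heavy chains H2-D1 and H2-K1 rose by 0.41 ± 0.025 and 0.34 ± 0.022, the peptide transporter Tap1 by 0.34 ± 0.032 and Nlrc5, the transactivator of class I genes, by 0.34 ± 0.034. The 3 not called were Tap2, Canx and Pdia3. Of 13 measured genes of interferon gamma signalling, 10 were higher and 1 lower (median 0.23). Irf1, a transcription factor that interferon gamma induces, rose by 0.40 ± 0.023, Irf8 by 0.36 ± 0.023, the receptor chain Ifngr2 by 0.37 ± 0.033 and the kinase Jak1 by 0.27 ± 0.024. Irf9 was the lower one, at -0.38 ± 0.038.

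Markers of several cell types moved in the same arrays, and in bulk spleen fewer cells of a type cannot be told apart from less RNA per cell. For the counts that follow, 26% of all genes tested were called lower and 40.6% higher. Beside the falls of the cap, all 11 measured markers of dividing cells were lower, with mean levels of 8.78 to 8.80 on the PFOS arrays and 10.26 to 10.28 on the control arrays (median change -1.42). All 9 measured markers of red cell precursors were lower as well, at 9.71 to 9.73 on the PFOS arrays and 11.16 to 11.20 on the control arrays (median -1.59). Beside the rises of the immunoproteasome, all 9 measured T cell markers were higher, at 9.03 to 9.04 on the PFOS arrays and 8.62 to 8.65 on the control arrays (median 0.40), as were 8 of 9 B cell markers, at 10.54 to 10.55 on the PFOS arrays and 10.09 to 10.12 on the control arrays (median 0.48), and 9 of 10 of macrophages and dendritic cells, at 9.33 to 9.35 on the PFOS arrays and 8.99 to 9.02 on the control arrays (median 0.35). Of 8 plasma cell markers 7 were higher (median 0.25), and of 10 neutrophil markers 7 were lower and 2 higher (median -0.41). Liver markers, which were lower in 9 of 9 cases, read 5.20 to 5.26 on the PFOS arrays and 9.06 to 9.12 on the control arrays, and the 4 measured pancreas markers were lower too (median -0.62). The 3′ minus 5′ signal of beta actin, a measure of RNA integrity, was 2.21 ± 0.01 in PFOS and 2.03 ± 0.01 in control (SD, n = 3 each; exact permutation p = 0.1), and that of Gapdh 1.69 ± 0.01 in PFOS and 1.74 ± 0.01 in control. The part of cell makeup, RNA integrity or labelling in the changes of the Psm genes was not tested.

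**Figure D5:**
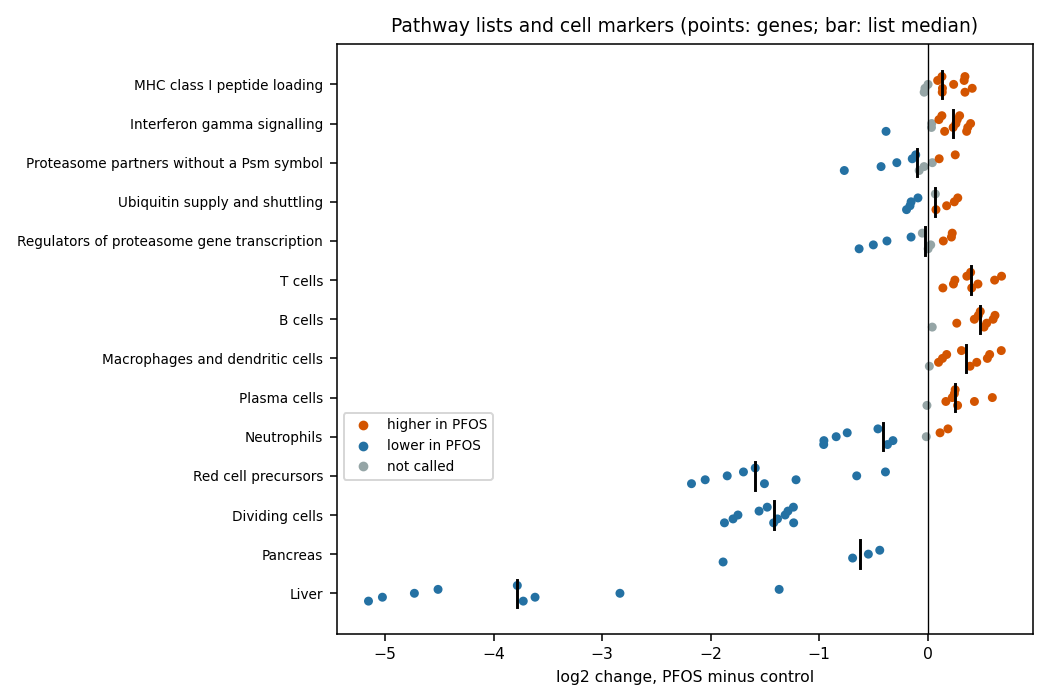
Log2 change, PFOS minus control, of the measured genes of 5 pathway lists and 9 lists of cell markers (points: genes, coloured by call; bar: list median). The class I loading and interferon lists have medians of 0.14 and 0.23, and dividing cells and red cell precursors of -1.42 and -1.59; scaling on the labelling spikes moves all points right by 0.476.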

How the data were processed

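The deposited values are RMA values on a log2 scale, per the submitters' processing notes; RMA version, genome build and filters, not given in the sources used here, remain unknown. Per the labels' protocols, 6 ug of Trizol-extracted total RNA was labelled with biotin. RMA equalizes arrays, so changes are relative to the array. Of the probe sets, 34945 had 1 gene symbol, 932 several and 9160 none, besides 64 controls. Probe sets under the 40th percentile of mean value (5.62) were left out, and the brightest probe set over the 6 arrays stood for its gene. The groups were compared with limma 3.58.1 in R 4.3.3 (lmFit, eBayes; two-sided; Benjamini-Hochberg over 13101 genes, and over 27022 probe sets in a second fit). The limma procedure was tested on simulated data in which few genes changed. Those changes were larger than many of the calls reported here, so the simulation cannot vouch for the small ones. Catalytic pairs were compared with exact permutation tests over arrays. Precision is limited by 3 arrays a group. Figures used matplotlib 3.10.9.

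Members, roles, lists and tests were chosen with earlier results of these data known; Psme3ip1 got its role after the annotation was seen. Values by array are given for the catalytic pairs, Psme1, the untested genes and the called genes with the largest fall and rise of each role. In each pathway list up to 4 called genes with the smallest p are named with their change and SE. Pomp, Sem1, Irf9, Nfe2l1 and the 3 class I genes not called were added after their values were seen. Genes of these lists without a tested probe set were not analysed here. Same-numbered PFOS and control arrays deviated together at r of 0.32, 0.14 and 0.097, and differently numbered ones at -0.23 to 0.13. The labels state no pairing, so the numbers were not taken as pairs in the main fit. Alternatives covered the block, filter, scaling, probe set choice, variance prior, array weights, threshold and leaving out each array.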

Additional observations from a re-analysis of the deposited data

How the results depend on the processing

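The number of 8730 called genes changed by less than 1.5 times in all settings, at 6975 to 12788. With the replicate block, 32 Psm genes were lower and 8 higher, and Psmd7 lost its call (adjusted p = 0.0509) while Psma1 and Psmb4 gained one; not every PFOS array deviated most like the control array of its number. Scaling on ribosomal protein genes left 5 Psm genes higher and 34 lower, and 42.8% of all calls higher, against 61.0% in the deposited values. Scaling on the labelling spikes gave 2 lower and 41 higher, with 93.8% of calls higher, and without the trp spikes, an alternative chosen after seeing the data because these stood at 3.41 in PFOS and 3.42 in control, 1 lower and 42 higher. Under spike scaling the changes turned positive for Psma1 (0.36), Psma5 (0.36), Psma6 (0.40), Psmb2 (0.26), Psmb4 (0.36), Psmb5 (0.40), Psmb6 (0.42), Psmc1 (0.31), Psmc2 (0.12), Psmc3 (0.17), Psmc4 (0.23), Psmc5 (0.12), Psmc6 (0.33), Psmd10 (0.41), Psmd11 (0.23), Psmd12 (0.27), Psmd13 (0.37), Psmd14 (0.27), Psmd2 (0.30), Psmd3 (0.15), Psmd4 (0.20), Psmd5 (0.035), Psmd6 (0.31), Psmd7 (0.34), Psmd8 (0.40), Psme4 (0.20), Psmg1 (0.38), Psmg2 (0.34), Psmg3 (0.29); the constant added is the cause. The mean over probe sets turned Psmb1 (-0.062, not called). Without _s_at, _x_at and _a_at probe sets, which can bind more than 1 transcript, Psma3 (-0.026), Psma6 (0.030), Psmb1 (-0.25) and Psmd13 (0.14) turned. In that setting 5 Psm genes were higher, 12 of 13 measured cap genes were lower, and Psmb8 and Psmb5 had no probe set for their pair. Relative to all genes, the medians were -0.077 (core), -0.26 (cap) and 0.22 (immunoproteasome and PA28); they were -0.098 (core) and 0.24 (immunoproteasome) with the mean over probe sets, and -0.059 and 0.18 without those suffixes. Leaving out 1 array gave -0.097 to -0.060 (core), -0.28 to -0.25 (cap) and 0.21 to 0.23 (immunoproteasome), and 25 to 30 Psm genes lower and 8 higher. No detection calls were used, and Psma8 and Psmb11 lay too near background to be compared.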
